A study of Mus musculus with 8 samples.

Results

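Type I interferon-stimulated antiviral genes were followed in mouse osteoclast precursor (OCP) cells treated with peroxiredoxin 1 (PRDX1), RANKL, the cytokine that drives osteoclast formation through its receptor RANK, or both. The set holds 43 named genes, chosen by symbol from the 25124 genes of the deposited RNA-seq table. All 43 were in the table, and all 43 were among the 11700 genes expressed highly enough to be tested (a mean of at least 0.5 FPKM, the count of fragments scaled for transcript length and library size).

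OCP cells were adherent bone marrow cells grown in macrophage colony-stimulating factor (M-CSF), first 5 ng/ml for 16 h and then 30 ng/ml for 3 days. The labels give the donors as C57BL/6 mice, 6 to 8 weeks old, whereas the methods of the study describe ICR mice for these cells. The 4 groups were no PRDX1 + no RANKL, PRDX1 + no RANKL, no PRDX1 + RANKL, and PRDX1 + RANKL, with 2 libraries in each, all cultured for 48 h with 30 ng/ml M-CSF. RANKL was given at 100 ng/ml. Below, the controls are the first of these groups, and a level "with PRDX1", "with RANKL" or "with both" is that of the other groups in the order above. PRDX1 was a recombinant His-tagged protein made in bacteria, passed over an endotoxin removal resin, and given at 200 nM. No source states that the 2 libraries of a group came from separate mice or cultures, so the p-values measure only the spread between these samples, which may be technical. The study asked whether extracellular PRDX1 acts through Toll-like receptor 4 (TLR4) on the differentiation of these cells into osteoclasts, and the comparisons here ask how the interferon-stimulated genes stood in each condition.

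Type I interferons are secreted proteins that bind the receptor pair IFNAR1 and IFNAR2. The kinases JAK1 and TYK2 then activate transcription factors, among them STAT2, which joins IRF9 on a DNA element, the interferon-stimulated response element (ISRE), beside many antiviral genes. In macrophages, Toll-like receptors and cytosolic sensors of nucleic acids are known inducers of interferon, and several interferon-stimulated genes are themselves such sensors. The products of these genes bind viral RNA, degrade RNA, deplete nucleotides, tag proteins with ISG15 or hold virions at the cell surface.

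The promoters of 33 of the 43 members were in the RefSeq table (GRCm38.p6). The ISRE core, GAAA, then 2 bases of any kind, then GAAA, searched on both strands in the 250 bases before each start site, was found in 12 of these 33 members (36.4%) and in 936 of 27025 genes (3.46%). Its 21 matches lay with their 5′ ends 12 to 188 bases before the start. The 12 members were Bst2, Ddx60, Ifi205, Ifit1, Ifit3, Ifit3b, Isg15, Oas1a, Oas1g, Oas3, Rsad2 and Trim30a. The gamma-activated site core, TTCNNNGAA, was found in 5 of 33 members (15.2%) and in 8.13% of genes. An NF-κB site form, GGG, then 2 bases of any kind, then TTTCC, was found in 0 of 33 members and in 1.65% of genes. These matches describe letters in a window, and their absence says only that the letters are not in that window. The windows printed here are the 200 bases before the start of 7 members with 2 or more ISRE cores. Those of Ifit1, Ifit3 and Ifit3b, and of Oas1a and Oas1g, let the spacing of the repeated element be compared within the IFIT and OAS families. Isg15 and Ddx60, of neither family, are printed beside them. Capitals mark the ISRE core, which reads TTTC, 2 bases, TTTC where the match is on the other strand, and matches that overlap form 1 run of capitals, as in Isg15, Oas1a and Oas1g.
Ifit1, chr19:34640689-34640888, + strand: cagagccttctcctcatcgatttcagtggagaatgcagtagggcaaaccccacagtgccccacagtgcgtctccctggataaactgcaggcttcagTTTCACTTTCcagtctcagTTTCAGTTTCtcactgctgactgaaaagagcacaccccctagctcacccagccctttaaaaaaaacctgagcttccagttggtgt
Ifit3, chr19:34583329-34583528, + strand: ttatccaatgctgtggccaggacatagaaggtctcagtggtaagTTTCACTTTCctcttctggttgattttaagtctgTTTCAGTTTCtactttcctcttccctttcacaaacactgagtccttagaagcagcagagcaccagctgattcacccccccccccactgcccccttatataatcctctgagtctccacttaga
Ifit3b, chr19:34607757-34607956, + strand: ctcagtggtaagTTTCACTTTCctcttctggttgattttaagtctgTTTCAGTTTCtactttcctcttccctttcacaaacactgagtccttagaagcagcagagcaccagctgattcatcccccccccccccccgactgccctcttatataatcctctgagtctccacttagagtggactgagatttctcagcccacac
Isg15, chr4:156200819-156201018, - strand: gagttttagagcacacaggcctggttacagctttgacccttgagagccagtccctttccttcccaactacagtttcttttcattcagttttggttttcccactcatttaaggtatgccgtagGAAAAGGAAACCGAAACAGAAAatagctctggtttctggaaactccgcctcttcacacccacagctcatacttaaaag
Oas1a, chr5:120907526-120907725, - strand: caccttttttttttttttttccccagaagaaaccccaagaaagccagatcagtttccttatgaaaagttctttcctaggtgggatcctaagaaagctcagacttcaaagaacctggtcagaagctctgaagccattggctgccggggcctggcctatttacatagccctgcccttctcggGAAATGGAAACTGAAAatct
Oas1g, chr5:120887614-120887813, - strand: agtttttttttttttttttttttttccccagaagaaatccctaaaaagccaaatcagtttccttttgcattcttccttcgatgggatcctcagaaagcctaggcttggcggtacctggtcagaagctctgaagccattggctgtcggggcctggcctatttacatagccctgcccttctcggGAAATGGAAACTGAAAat
Ddx60, chr8:61927887-61928086, + strand: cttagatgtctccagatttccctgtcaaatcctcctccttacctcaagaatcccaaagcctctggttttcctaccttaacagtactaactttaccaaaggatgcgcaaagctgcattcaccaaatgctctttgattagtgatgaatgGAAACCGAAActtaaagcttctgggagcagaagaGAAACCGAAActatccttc
The promoters of Ifit3 and Ifit3b share an identical run of 169 bases, in which both elements lie, and those of Oas1a and Oas1g one of 56 bases. The longest run shared by Ifit1 and Ifit3 was 13 bases. Bst2, whose window is not printed, also has 2 ISRE cores, and its gamma-activated site core overlaps the first of them.

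Many members are neighbours. Ifit2, Ifit3, Ifit3b and Ifit1 lie in this order on chromosome 19, Oasl2 beside Oasl1 and Oas2, Oas3, Oas1g and Oas1a in a cluster on chromosome 5, and Parp14, Dtx3l and Parp9 side by side on chromosome 16, which also carries Mx1 and Mx2. Dtx3l and Parp9 lie on opposite strands and overlap by 558 bases, and reads were counted without regard to strand, so these reads cannot be told apart. Similar copies can also share reads. Of the windows of 100 bases in the transcript of Ifit3, 31.7% occur unchanged in Ifit3b, and 40.1% of those of Oas1a occur in Oas1g. The separate values of these 4 genes are therefore uncertain, whereas 0% was shared between Ifit1 and Ifit2 or Ifit3, between Oasl1 and Oasl2, and between Ifi204 and Ifi205. Mx1 shared 1.25% of its windows with Mx2, and Mx2 1.72% with Mx1. Only chosen pairs of members were compared, so similar copies outside these pairs were not checked.

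Library totals, recovered from the FPKM values, were 27284652 to 46171783 reads, and the least covered member in any library, Ifi205, had 40 reads. The macrophage markers Csf1r, Adgre1, Itgam, Cd68, Fcgr1, Mertk and Lyz2 were all expressed, with summed levels of 15264 to 17017 FPKM in the controls, 16145 to 16602 with PRDX1, 9710 to 10132 with RANKL, and 13101 to 13494 with both. The summed level of 6 osteoclast markers was 31.9 to 33.1, 78.6 to 83.1, 1511 to 1552, and 206 to 211 FPKM in the same order. Lyz2 made up most of the macrophage sum (a mean of 14117 FPKM in the controls). With RANKL alone Fcgr1 had a mean of 8.49 and Mertk of 4.56 FPKM, against 113 and 21.6 in the controls. Of the macrophage markers, Adgre1, Fcgr1 and Mertk passed the test for PRDX1 with RANKL, all higher, and 0 passed without RANKL. The shares of all genes tested that were called higher were 6.03% and 3.80%. In no group did the 2 replicates agree within read sampling noise (chi-square per degree of freedom of 4.71 to 9.58). The members also differed within the control group: replicate 2 with no PRDX1 + no RANKL stood above replicate 1 in 42 of 43 members, by a median of 0.21 on the log2 scale (0.0075 over all genes tested), and calls that depend on either of these libraries are given with and without it.

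The summed level of the 43 members was 1547 and 1763 FPKM in the controls, 2563 and 2565 with PRDX1, 1501 and 1470 with RANKL, and 2733 and 2742 with both. Both groups with PRDX1 stood above both without it, and the groups did not overlap. As a share of the reads on genes, the members took 0.445% and 0.498%, 0.709% and 0.710%, 0.439% and 0.421%, and 0.770% and 0.777% in the same order. In cultures of mixed cells, fewer expressing cells and less RNA per cell cannot be told apart. The map of all members by library shows this pattern gene by gene.

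**Figure D1:**
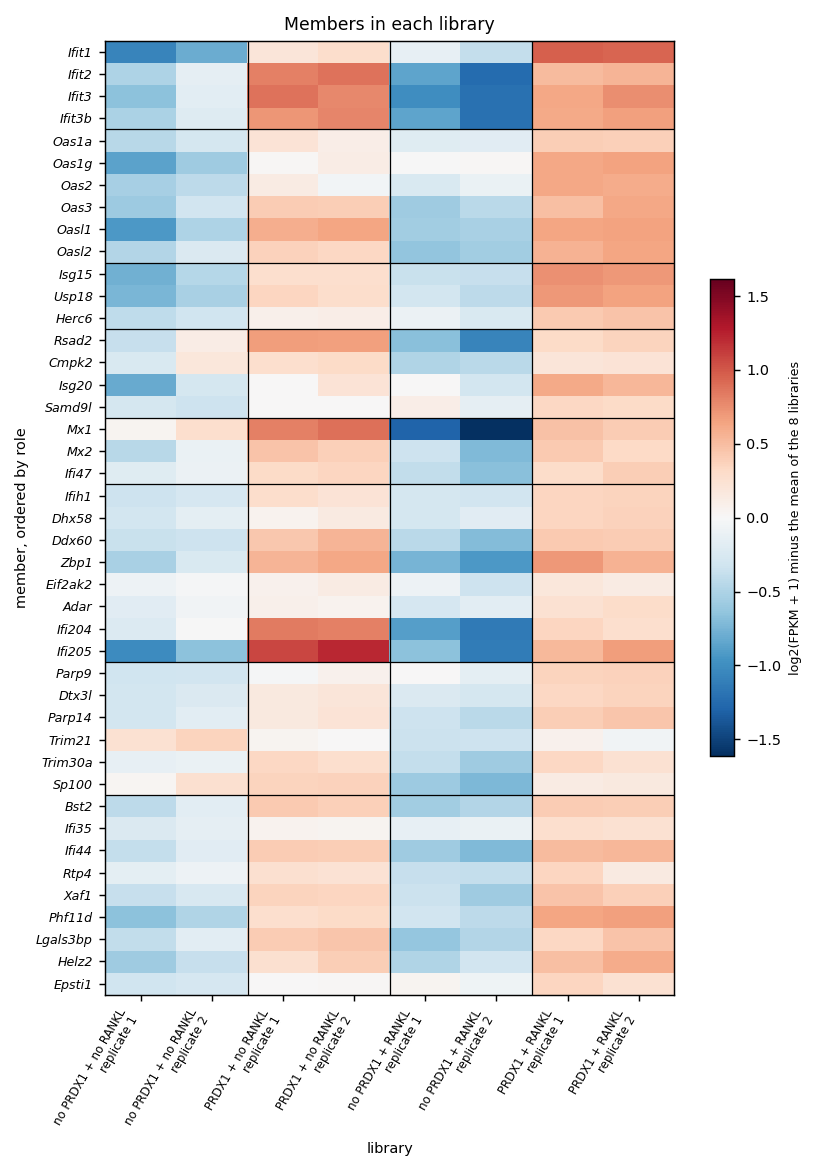
Level of each of the 43 members (vertical axis, ordered by role, with lines between roles) in each of the 8 libraries (horizontal axis), as log2(FPKM + 1) minus the member's mean over the 8 libraries; red is above and blue below that mean. The 4 libraries with PRDX1 are mostly red and the 4 without it mostly blue, Trim21 being the clearest exception, and replicate 1 of the control group is bluer than replicate 2.

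Without RANKL, PRDX1 raised 24 of the 43 members and lowered 0, while 19 did not pass the test. The test, used throughout, was limma on log2(FPKM + 1) and a gene counted as called when its change was at least 1.5-fold at a p-value under 0.05 after Benjamini-Hochberg adjustment, while a fold change on this scale understates the change of genes at low levels. Over all genes tested, 3.80% were called higher and 1.99% lower. The median member changed by 0.69 on the log2 scale, or 1.61-fold, against -0.04 for the median of all genes tested. Both libraries with PRDX1 lay above both controls for 42 members, as for 26.1% of all genes tested, and below both for 1, Trim21 (39.7% of all genes tested). Without replicate 1 of the control group 20 members were called, and without replicate 2 of that group 26.

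In the presence of RANKL, PRDX1 raised 35 members and lowered 0, and 8 did not pass. Over all genes tested, 6.03% were called higher and 4.17% lower. The median member changed by 0.88 on the log2 scale, or 1.85-fold, against -0.06 for all genes tested, and all 43 had both libraries with PRDX1 and RANKL above both with RANKL alone, as had 27.9% of all genes tested. The 24 members called without RANKL were all called with RANKL as well. The same overlap was not counted over all genes tested, so it cannot be read as particular to the members. The 11 called with RANKL but not without it were Oas2, Herc6, Cmpk2, Ifi47, Ifih1, Dhx58, Dtx3l, Parp14, Trim30a, Sp100 and Rtp4. Their log2 fold changes without RANKL lay between 0.23 and 0.56, and the adjusted p was under 0.05 there for 10 of the 11 (29.8% of all genes tested), so most missed only the fold threshold. Several calls with RANKL lay near the fold threshold and were lost when 1 library was left out: Herc6 (0.54), Isg20 (0.56) and Dtx3l (0.57) without replicate 2 of no PRDX1 + RANKL, Dhx58 without replicate 1 of that group (0.53) or replicate 2 of PRDX1 + RANKL (0.57), and Rtp4 without replicate 1 of the latter (0.52). The difference between the 2 changes of the 11 passed an adjusted p of 0.05 for 4 of them, Ifi47, Parp14, Trim30a and Sp100, against 23.1% of all genes tested.

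**Figure D2:**
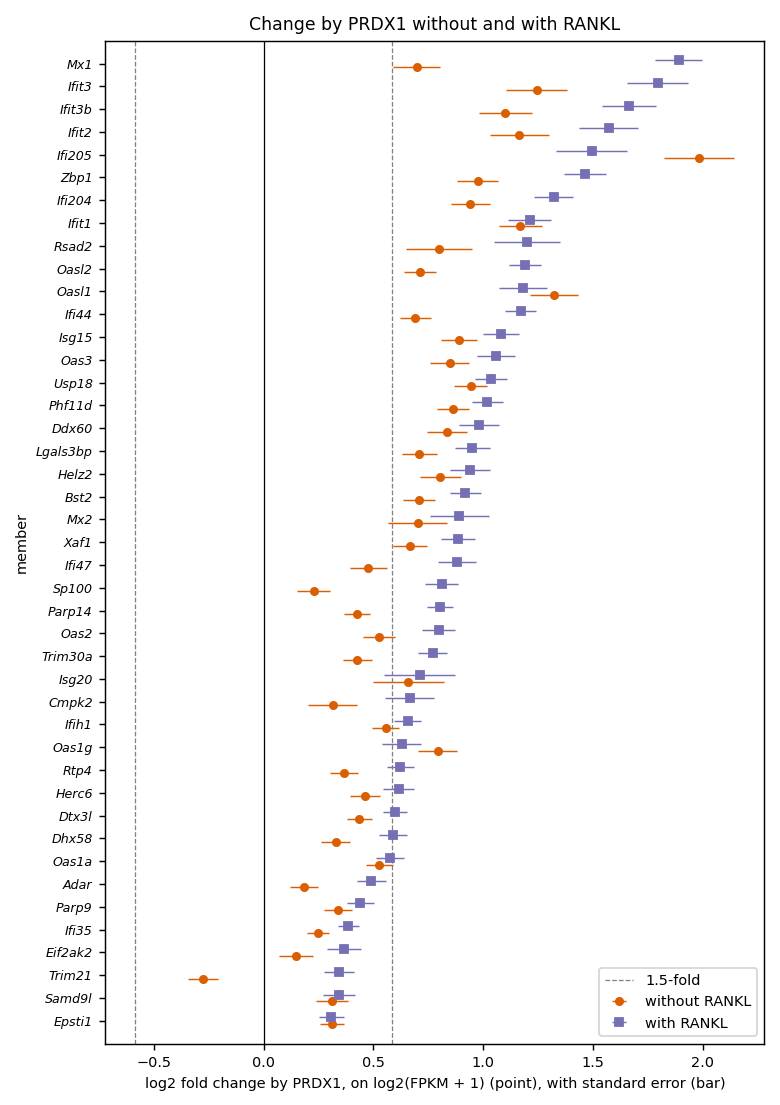
log2 fold change by PRDX1 (horizontal axis) of each member (vertical axis), without RANKL (circles) and with RANKL (squares); bars are standard errors and dashed lines mark 1.5-fold. All squares and all circles but that of Trim21 lie right of 0, and the squares lie right of the circles for 39 of the 43 members.

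The 4 IFIT genes, whose products bind viral RNA, were all raised by PRDX1 in both comparisons. Ifit3 had 8.57 and 12.5 FPKM in the controls, 26.9 and 25.01 with PRDX1, 6.56 and 5.62 with RANKL and 22.5 and 24.6 with both. Its groups with PRDX1 lay far above those without, at a log2 fold change of 1.24 without RANKL (SE 0.14; limma, adjusted p = 0.000121) and 1.79 with it (SE 0.14, adjusted p = 5.07e-06). Ifit3b, the near copy, followed it closely, with 10.7 and 13.5 FPKM in the controls, 26.2 and 27.7 with PRDX1, 8.26 and 6.19 with RANKL and 24.4 and 25.3 with both. Its log2 fold changes were 1.10 and 1.66. Ifit2 had 11.4 and 14.9 FPKM in the controls, 29.9 and 31.3 with PRDX1, 8.76 and 6.42 with RANKL and 23.9 and 24.6 with both, and log2 fold changes of 1.16 and 1.57. It is the 1 IFIT gene without an ISRE core in its promoter windows. Ifit1 differed in its order of groups: 11.3 and 13.7 FPKM in the controls, 28.4 and 30.1 with PRDX1, 22.5 and 18.6 with RANKL and 49.2 and 48.1 with both, so that RANKL stood above the control and the combination above either alone. Its log2 fold changes by PRDX1 were 1.17 without RANKL and 1.21 with it (SE 0.098 for each; limma, adjusted p = 1.90e-05 and 7.19e-06).

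The oligoadenylate synthetases make the messenger that activates the RNA-cutting enzyme RNase L, and OASL proteins are their relatives. PRDX1 raised 4 of 6 without RANKL and 5 of 6 with it. Oasl1 had 18.02 and 24.8 FPKM in the controls, 53.3 and 55.4 with PRDX1, 23.7 and 24.3 with RANKL and 55.5 and 55.9 with both. Its levels with RANKL lay within or near those without it, and the log2 fold change by PRDX1 was 1.32 without RANKL (SE 0.11; limma, adjusted p = 1.85e-05) and 1.18 with it (SE 0.11, adjusted p = 1.92e-05). Oasl2 was more abundant, at 64.1 and 75.99 FPKM in the controls, 116 and 114 with PRDX1, 57.6 and 60.7 with RANKL and 133 and 139 with both, and rose by 0.71 and 1.19 on the log2 scale. Oas3 had 32.6 and 39.5 FPKM in the controls, 65.6 and 65.1 with PRDX1, 32.8 and 36.3 with RANKL and 69.4 and 76.4 with both, with log2 fold changes of 0.85 and 1.06. Oas2 passed with RANKL (0.80). Oas1g resembled Ifit1 in its groups, at 11.3 and 14.1 FPKM in the controls, 21.8 and 23.4 with PRDX1, 21.5 and 21.8 with RANKL and 33.8 and 34.2 with both. Its near copy Oas1a had 54.03 and 60.9 FPKM in the controls, 86.6 and 79.8 with PRDX1, 64.9 and 65.5 with RANKL and 97.9 and 97.6 with both, and log2 fold changes of 0.53 and 0.58, just under the fold threshold in both comparisons.

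Isg15, the ubiquitin-like protein, and Usp18, the protease that removes it and restrains IFNAR signaling, were raised in both comparisons. Isg15 had 54.3 and 67.5 FPKM in the controls, 113 and 113 with PRDX1, 72.5 and 72.4 with RANKL and 156 and 152 with both. Every library with PRDX1 exceeded every library without it, and the log2 fold changes were 0.89 (SE 0.081; limma, adjusted p = 3.50e-05) and 1.08 (SE 0.081, adjusted p = 4.23e-06). Usp18 had 22.2 and 25.8 FPKM in the controls, 48.03 and 45.8 with PRDX1, 30.3 and 27.9 with RANKL and 61.6 and 59.6 with both, and rose by 0.94 and 1.03. Herc6, the mouse ligase for ISG15, was lower, at 9.74 and 10.4 FPKM in the controls, 14.1 and 14.3 with PRDX1, 12.3 and 11.00 with RANKL and 18.1 and 18.6 with both, and passed the test with RANKL (0.61) but not without it (0.46).

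Among genes of nucleotide and RNA turnover, Rsad2 (viperin, which makes a chain-terminating nucleotide) had 17.6 and 25.2 FPKM in the controls, 37.7 and 37.3 with PRDX1, 14.1 and 10.6 with RANKL and 28.9 and 29.9 with both. The control libraries were far apart, and the log2 fold change by PRDX1 without RANKL, 0.80 (SE 0.15; limma, adjusted p = 0.00323), was 0.55 and no longer called without replicate 1 of the control group. With RANKL it was 1.20 (SE 0.15, adjusted p = 0.000146). Its neighbour Cmpk2, a nucleotide kinase on the opposite strand, had 15.5 and 21.3 FPKM in the controls, 22.5 and 23.2 with PRDX1, 12.96 and 13.5 with RANKL and 21.3 and 21.8 with both, and passed only with RANKL (0.66). Isg20, an RNA exonuclease at 3.03 and 4.81 FPKM in the controls, 6.09 and 7.23 with PRDX1, 6.11 and 4.76 with RANKL and 9.73 and 9.21 with both, rose by 0.66 and 0.71, and the first of these was 0.39 and not called without replicate 1 of the controls (0.55 and not called without replicate 2 of PRDX1 + no RANKL). Samd9l, a restriction factor, had 34.04 and 32.8 FPKM in the controls, 41.7 and 41.7 with PRDX1, 44.7 and 37.5 with RANKL and 52.7 and 51.6 with both, and was called in neither comparison.

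Of the interferon-induced GTPases, Mx1 showed the largest difference between the 2 PRDX1 comparisons. Mx1 had 12.8 and 15.1 FPKM in the controls, 22.5 and 23.8 with PRDX1, 4.47 and 3.37 with RANKL and 17.5 and 16.7 with both. RANKL alone gave the lowest levels, and the level with both lay between PRDX1 alone and the controls. The log2 fold change by PRDX1 was 0.70 without RANKL (SE 0.11; limma, adjusted p = 0.00101) and 1.89 with it (SE 0.11, adjusted p = 7.14e-07). On the log2(FPKM + 1) scale this was the largest among the 43 members with RANKL. This order depends on the added 1: with RANKL the mean of Mx1 went from 3.92 to 17.1 FPKM, and that of Ifi205 from 1.05 to 4.70. Mx2 had 5.13 and 6.73 FPKM in the controls, 10.5 and 9.88 with PRDX1, 5.62 and 4.11 with RANKL and 10.1 and 9.44 with both, so that its level with RANKL alone lay near the controls, and it rose by 0.70 (0.53 and not called without replicate 1 of the controls) and 0.89. Ifi47, a p47 GTPase, had 30.7 and 32.9 FPKM in the controls, 44.1 and 45.3 with PRDX1, 26.7 and 21.8 with RANKL and 43.7 and 46.8 with both, and passed with RANKL (0.88).

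**Figure D3:**
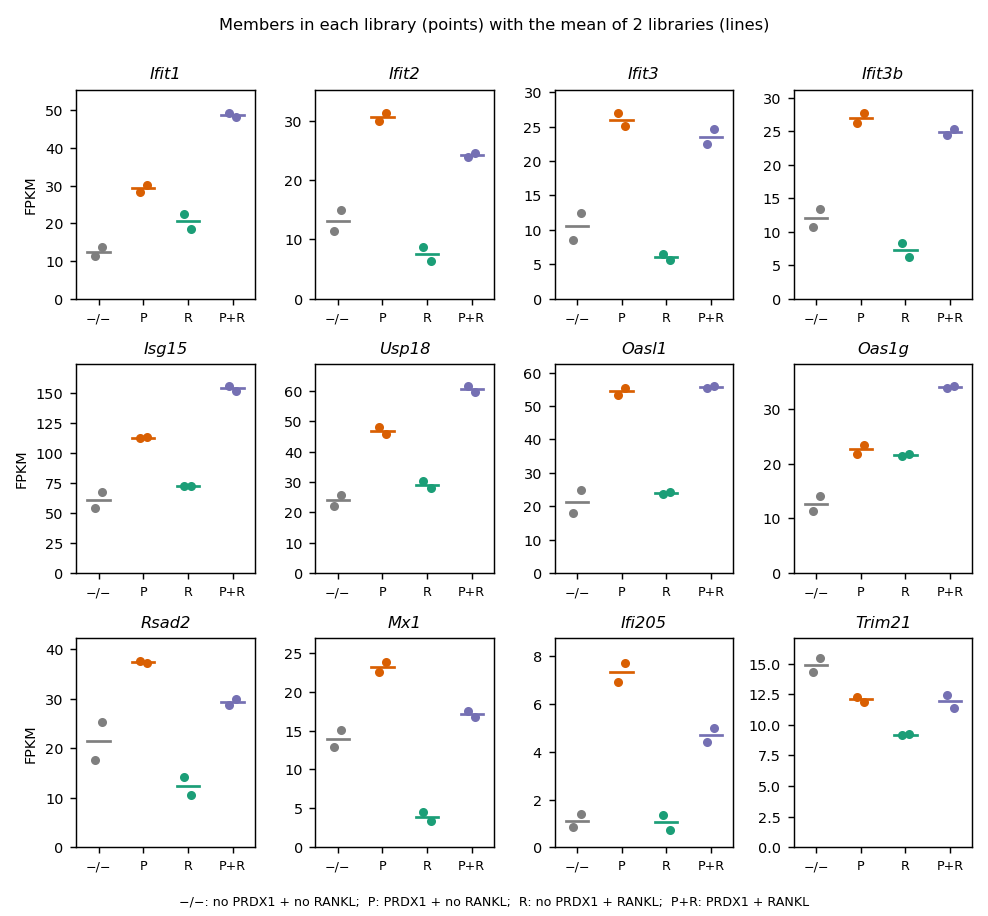
FPKM (vertical axes, from 0) of 12 members in the 4 groups (horizontal axes); points are the 2 libraries of a group and lines their mean. Ifit1 and Oas1g are higher with RANKL than in the controls and highest with both, Ifit2, Ifit3, Ifit3b, Rsad2 and Mx1 are lowest with RANKL alone, and Trim21 is highest in the controls.

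The sensors and RNA-binding effectors gave 4 of 8 genes raised without RANKL and 6 of 8 with it. Ifi205, which encodes a member of the IFI200 family of DNA-binding proteins, had the largest change of all members without RANKL. It had 0.863 and 1.37 FPKM in the controls, 6.92 and 7.73 with PRDX1, 1.37 and 0.722 with RANKL and 4.40 and 5.00 with both, at log2 fold changes of 1.98 (SE 0.16; limma, adjusted p = 1.48e-05) and 1.49 (SE 0.16, adjusted p = 4.80e-05). Ifi204, of the same family, was more abundant at 40.7 and 47.2 FPKM in the controls, 86.00 and 84.02 with PRDX1, 25.2 and 21.01 with RANKL and 60.5 and 57.5 with both, and rose by 0.94 and 1.32. Zbp1, a sensor of Z-form nucleic acid that can trigger cell death, had 26.7 and 32.5 FPKM in the controls, 57.3 and 60.4 with PRDX1, 22.7 and 19.98 with RANKL and 63.3 and 57.8 with both, and rose by 0.97 (limma, adjusted p = 4.77e-05) and 1.46 (adjusted p = 1.46e-06). The helicases Ifih1 (MDA5, a sensor of long double-stranded RNA) and Dhx58 (LGP2, its regulator) passed with RANKL (0.66 and 0.59), and Ddx60 passed in both (0.84 and 0.98). Eif2ak2, the kinase PKR, and Adar, the RNA-editing deaminase, were called in neither. Eif2ak2 had 38.1 and 39.7 FPKM in the controls, 42.2 and 44.1 with PRDX1, 38.1 and 31.8 with RANKL and 46.1 and 44.3 with both. Adar had 22.02 and 24.2 FPKM in the controls, 26.7 and 26.04 with PRDX1, 20.6 and 22.3 with RANKL and 29.9 and 31.1 with both.

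The PARP and TRIM group, which holds ADP-ribosyl transferases, ubiquitin ligases and a nuclear body protein, was the only role with 0 of 6 members called without RANKL, and 4 of 6 were raised with it. Sp100, the nuclear body protein, had 62.8 and 73.6 FPKM in the controls, 79.3 and 80.2 with PRDX1, 40.5 and 36.7 with RANKL and 67.8 and 68.98 with both. RANKL alone was lowest, and the change by PRDX1 was 0.23 without RANKL (0.11 without replicate 1 of the controls and 0.34 without replicate 2) and 0.81 with it (SE 0.074; limma, adjusted p = 1.68e-05). Parp14 had 38.9 and 42.2 FPKM in the controls, 53.5 and 55.8 with PRDX1, 37.8 and 35.2 with RANKL and 63.3 and 65.5 with both (0.42 and 0.80). Trim30a, which restrains Toll-like receptor signaling, had 81.3 and 82.1 FPKM in the controls, 113 and 108 with PRDX1, 68.1 and 59.3 with RANKL and 113 and 106 with both (0.43 and 0.77). For both, the change by PRDX1 was larger in the presence of RANKL, where the level without PRDX1 was lower. Dtx3l, a ubiquitin ligase that pairs with Parp9, had log2 fold changes of 0.44 and 0.60 (limma, adjusted p = 0.000309 and 1.86e-05), and Parp9 0.34 and 0.44. Trim21, the antibody receptor of the cytosol, was the 1 member lower with PRDX1 without RANKL. It had 14.3 and 15.5 FPKM in the controls, 12.3 and 11.9 with PRDX1, 9.15 and 9.24 with RANKL and 12.5 and 11.4 with both, at log2 fold changes of -0.28 (SE 0.069; limma, adjusted p = 0.0136) and 0.34 (SE 0.069, adjusted p = 0.00285), both smaller than the fold threshold.

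Among the remaining 9 members, 6 were raised without RANKL and 7 with it. The most abundant were Lgals3bp, a secreted glycoprotein, and Bst2 (tetherin), which holds budding virions on the cell surface. Lgals3bp had 210.1 and 245 FPKM in the controls, 366 and 377 with PRDX1, 178 and 199 with RANKL and 349 and 381 with both. Bst2 had 175 and 209 FPKM in the controls, 318 and 309 with PRDX1, 159.9 and 170.4 with RANKL and 314 and 312 with both. Both rose to a near-equal level with PRDX1 in either setting, by 0.71 and 0.95 for Lgals3bp and by 0.71 and 0.92 for Bst2, whose first call was lost without replicate 1 of the controls (0.58). Ifi44 had 51.4 and 59.5 FPKM in the controls, 90.4 and 89.4 with PRDX1, 45.1 and 40.9 with RANKL and 96.9 and 98.95 with both, and rose by 0.69 and 1.17 (SE 0.071; limma, adjusted p = 1.02e-06). Phf11d, a PHD finger gene at 11.00 and 12.5 FPKM in the controls, 21.8 and 22.5 with PRDX1, 14.3 and 13.2 with RANKL and 28.6 and 29.04 with both, rose by 0.86 and 1.02. Helz2, a helicase at 9.07 and 10.6 FPKM in the controls, 16.96 and 18.8 with PRDX1, 9.73 and 11.1 with RANKL and 19.9 and 21.8 with both, rose by 0.81 and 0.94. Xaf1, a gene linked to apoptosis, had 21.2 and 23.1 FPKM in the controls, 35.9 and 35.4 with PRDX1, 21.6 and 18.2 with RANKL and 38.5 and 36.5 with both, and rose by 0.67 and 0.88, so that all 3 had every library with PRDX1 above every library without it. Rtp4, a receptor chaperone, passed with RANKL (0.62). Ifi35 and Epsti1 were called in neither, and Epsti1, at 47.7 and 49.2 FPKM in the controls, 60.2 and 60.6 with PRDX1, 61.5 and 57.1 with RANKL and 76.4 and 70.9 with both, had almost equal changes of 0.31 and 0.31.

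Across the 43 members, the 2 changes by PRDX1, which share no library, had a Pearson correlation of 0.78 and a Spearman correlation of 0.87 (0.44 and 0.37 across all genes tested). These are descriptions across genes that share libraries and, in part, reads. The difference between the changes (the interaction of PRDX1 and RANKL) was called for 2 members, Mx1 (1.19; limma, adjusted p = 0.000398) and Trim21 (0.62, adjusted p = 0.00145). Both changes were more positive with RANKL, that of Trim21 going from -0.28 to 0.34. Over all genes tested, 4.50% were called with a higher and 4.35% with a lower value, or 8.85% in either direction, so the 2 of 43 members, both higher, were a share near the 4.50% called higher. The median member difference was 0.22 on the log2 scale, against -0.01 for all genes tested (0.33 without replicate 1 of the controls and 0.14 without replicate 2). An adjusted p under 0.05, with no fold threshold, was reached by 11 of the 43 members and by 23.1% of all genes tested, so this share lay near the background. Sp100 missed the fold threshold narrowly (0.58, adjusted p = 0.00313). The count of 2 became 9 without replicate 1 of the controls, 1 without replicate 2 and 5 without replicate 1 of no PRDX1 + RANKL, so it depends on which library is used. Trim21 was lost without replicate 2 of the controls (0.57) or replicate 1 of PRDX1 + RANKL (0.56), while Mx1 was called without any 1 library.

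By RANKL without PRDX1, 2 members were higher (Ifit1, 0.67, and Oas1g, 0.73, with limma adjusted p-values of 0.000195 and 4.94e-05) and 8 lower, against 11.8% and 9.96% of all genes tested. The 8 were Mx1 (-1.61), Ifi204 (-0.90), Sp100 (-0.80), Rsad2 (-0.74), Ifit2 (-0.73), Ifit3 (-0.69), Ifit3b (-0.67) and Trim21 (-0.64). Both libraries with RANKL lay above both controls for 12 members and below both for 19, against 47.7% and 30.2% of all genes tested. The share called higher was below that of all genes, and the median member changed by -0.15 against 0.10 for all genes tested (-0.21 without replicate 1 of the controls and -0.0633 without replicate 2 of no PRDX1 + RANKL). Under quantile normalization and upper quartile scaling more of all genes were called lower than higher (1322 against 1088, and 1302 against 1153). The calls for Ifit1 and Oas1g were lost without replicate 1 of the controls (0.55 and 0.58), and those for Ifit2, Ifit3, Ifit3b and Rsad2 without replicate 2 (-0.55, -0.44, -0.52 and -0.50), which left 4 lower. Without replicate 1 of no PRDX1 + RANKL, Ifit1 was lost (0.55), and without replicate 2 of that group Ifit2, Ifit3b and Rsad2 were (-0.53, -0.49 and -0.55). In the presence of PRDX1, RANKL raised 1 member, Ifit1 (0.72; limma, adjusted p = 0.000316), and lowered 0, against 4.52% and 3.98% of all genes tested, with a median member change of 0.10 (0.07 for all genes). The libraries did not overlap for 25 members that were higher (47.3% of all genes tested) and 10 that were lower (27.0%). The RANKL comparisons use the same libraries as the PRDX1 comparisons, so the 2 sets of values are not independent.

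**Figure D4:**
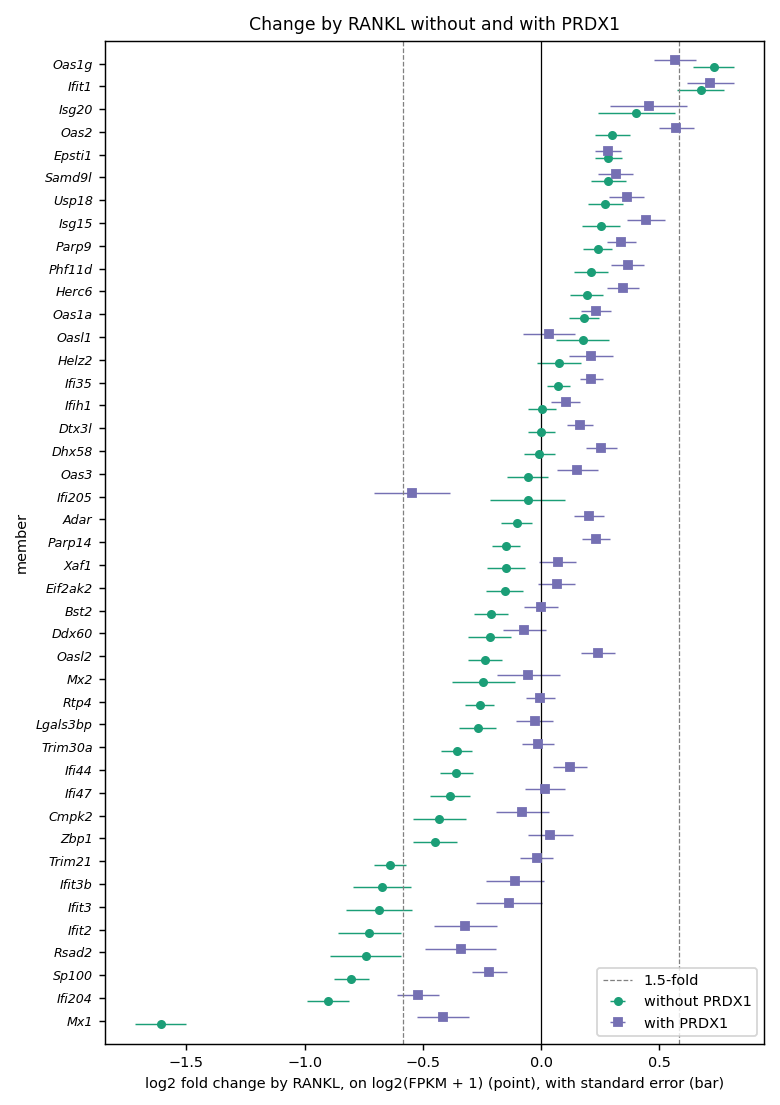
log2 fold change by RANKL (horizontal axis) of each member (vertical axis), without PRDX1 (circles) and with PRDX1 (squares); bars are standard errors and dashed lines mark 1.5-fold. The circles run from -1.61 for Mx1 to 0.73 for Oas1g, and the squares lie within a narrower span, from -0.55 for Ifi205 to 0.72 for Ifit1.

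For the 12 members with an ISRE core, the change by PRDX1 had a median of 0.84 on the log2 scale when RANKL was absent (0.43 to 1.98, 10 called) and of 1.07 when it was present (11 called). The 21 members with a promoter but no core had medians of 0.48 (-0.28 to 1.32, 9 called) and 0.71 (15 called). The 2 ranges overlap widely, and no test was made. By RANKL without PRDX1 the medians were -0.14 with the core and -0.10 without.

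The genes that lead to these members were examined from the ligands downwards. None of 21 interferon genes, which included the interferon alpha genes, Ifnb1, Ifng and the interferon lambda genes, passed the filter. Of these, 18 were at 0 in all 8 libraries, Ifnb1 and Ifnk had at most 2 reads in a library and Ifnz 1 (8, 3 and 1 reads over the 8 libraries), all under the floor of 3 reads in each library, so that no difference in interferon mRNA between the groups could be read at this depth. Of the libraries with an Ifnb1 read, 1 was a control, 2 had PRDX1 and 1 had both, at 0.056 to 0.083 FPKM. Of 7 receptors and kinases, 0 were called in either direction by PRDX1, with or without RANKL. Among all genes tested, 3.80% were called higher and 1.99% lower without RANKL, and 6.03% and 4.17% with it. A count of 0 of 7 therefore does not set these genes apart. Ifnar1 had 35.6 and 34.1 FPKM in the controls, 35.99 and 37.4 with PRDX1, 45.2 and 44.1 with RANKL and 46.4 and 46.4 with both. Ifnar2 had 92.4 and 92.8 FPKM in the controls, 98.97 and 109 with PRDX1, 65.9 and 68.5 with RANKL and 89.3 and 92.3 with both.

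Among 8 transcription factors of the pathway, PRDX1 raised 2 without RANKL and 3 with it, and lowered 0. The shares of all genes tested that were called higher were 3.80% and 6.03%. Irf7, the factor that amplifies interferon production, stood out with 156 and 170.1 FPKM in the controls, 570.3 and 576 with PRDX1, 176 and 194 with RANKL and 594 and 599 with both. Its levels with PRDX1 lay far above those without it and close to each other, and the log2 fold changes by PRDX1 were 1.81 (SE 0.056; limma, adjusted p = 2.63e-08) and 1.68 (SE 0.056, adjusted p = 1.66e-08). Stat2 had 27.4 and 34.4 FPKM in the controls, 48.1 and 47.3 with PRDX1, 13.1 and 14.5 with RANKL and 37.9 and 39.1 with both, the order of groups seen for Mx1, and rose by 0.62 (0.46 and not called without replicate 1 of the controls) and 1.42. Irf8, a factor of the monocyte lineage, had 47.8 and 50.3 FPKM in the controls, 59.5 and 59.4 with PRDX1, 7.77 and 7.72 with RANKL and 23.9 and 25.4 with both, was lowered by RANKL without PRDX1 (-2.52) and raised by PRDX1 with RANKL (1.55). Irf9, the partner of STAT2, had 35.4 and 36.3 FPKM in the controls, 40.8 and 40.6 with PRDX1, 35.6 and 31.4 with RANKL and 41.7 and 40.8 with both, and did not pass. The difference between the PRDX1 changes was called for Stat2 (0.80; limma, adjusted p = 0.00174) and Irf8 (1.28, adjusted p = 3.81e-06). They were 2 of the 4 pathway genes called among 41 tested (9.76%), all 4 with a higher value. Of all genes tested, 4.50% were called with a higher value and 8.85% in either direction. Whether the pathway share differs from these was not tested.

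**Figure D5:**
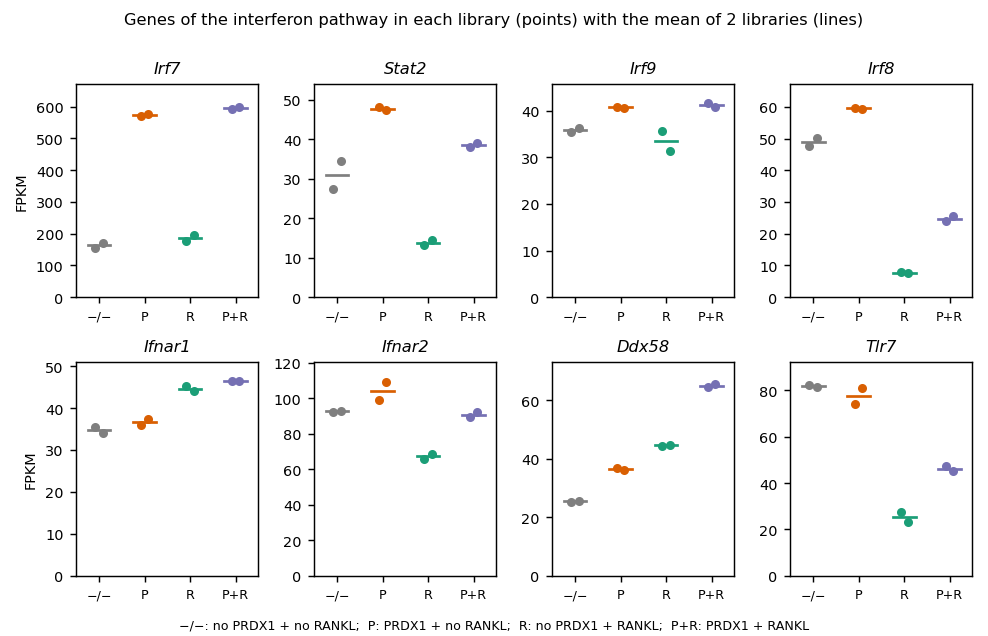
FPKM (vertical axes, from 0) of 8 genes of the interferon pathway in the 4 groups (horizontal axes); points are the 2 libraries of a group and lines their mean. Irf7 is at 156 to 194 FPKM in the 4 libraries without PRDX1 and at 570 to 599 in those with it, whereas Ifnar1 and Ifnar2 were not called by PRDX1.

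PRDX1 raised 3.80% of all genes tested and lowered 1.99% without RANKL, and 6.03% and 4.17% with it. The counts of the short lists in this paragraph are to be read beside these shares. Of 12 genes that induce interferon, PRDX1 raised 0 without RANKL and 2 with it, and lowered 0. One was Tlr7, the endosomal sensor of single-stranded RNA, at 82.2 and 81.3 FPKM in the controls, 74.2 and 81.2 with PRDX1, 27.5 and 23.1 with RANKL and 47.3 and 45.2 with both (0.85 with RANKL). The other was the kinase Ikbke, at 34.2 and 30.6 FPKM in the controls, 40.6 and 39.9 with PRDX1, 19.1 and 18.96 with RANKL and 39.5 and 37.9 with both (0.99). Both were lowest with RANKL alone. Ddx58, the sensor RIG-I, had 25.3 and 25.5 FPKM in the controls, 36.8 and 36.1 with PRDX1, 44.5 and 44.8 with RANKL and 64.6 and 65.4 with both, and log2 fold changes of 0.51 and 0.53, under the fold threshold. Tlr4, the receptor in the question of the study, had 24.4 and 23.2 FPKM in the controls, 21.2 and 22.1 with PRDX1, 16.7 and 14.2 with RANKL and 20.6 and 19.4 with both, and was not called by PRDX1. Of 6 inhibitors of cytokine signaling, Socs1 (0.64; 0.46 and not called without replicate 1 of the controls) and Socs3 (0.85) rose with PRDX1 without RANKL and 0 with it. Of 8 tested genes known chiefly for interferon gamma, PRDX1 raised Gbp3 and Gbp4 (0.77 and 0.81) without RANKL, and Irgm1, Irgm2 and Igtp (0.64, 0.76 and 0.64) with it. Irgm1 and Igtp were not called without replicate 2 of no PRDX1 + RANKL (0.56 and 0.58).

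Markers of other cell types also moved with PRDX1. The summed level of 5 markers of plasmacytoid dendritic cells, 3 of them expressed at a mean of 0.5 FPKM or more, was 1.60 to 1.62 FPKM in the controls, 3.76 to 4.33 with PRDX1, 1.84 to 2.02 with RANKL and 4.003 to 4.14 with both. That of 6 markers of neutrophils and their precursors (4 expressed) was 4.59 to 7.09, 21.1 to 21.6, 10.2 to 10.8 and 20.9 to 21.5 FPKM, most of it from S100a8. That of 5 stromal markers (3 expressed) was 7.67 to 10.4, 16.3 in both libraries, 7.48 to 9.49, and 15.3 to 19.0 FPKM. The 5 markers of conventional dendritic cells (2 expressed) summed to 1.58 to 2.08, 2.21 to 2.43, 1.88 to 2.16, and 3.38 to 4.20 FPKM, and the 3 of B cells (0 expressed) to 0.353 to 0.528, 1.003 to 1.28, 0.370 to 0.663, and 0.705 to 1.01 FPKM. For these 5 lists every library with PRDX1 stood above every library without it, as for the summed members, at levels far under the sum of the macrophage markers. This holds for the sums and not for each marker. Of the 2 expressed markers of conventional dendritic cells, Ccr7 was called higher with PRDX1 (0.91 without RANKL and 0.99 with it). Cd209a went the other way and was not called (-0.49 and -0.08). The 3 markers of endothelial cells (1 expressed) summed to 1.82, 3.02 to 3.06, 3.57 to 3.91, and 5.16 to 5.54 FPKM. Of the 4 T and NK cell markers in the table, Cd3e and Ncr1 were at 0 in all 8 libraries and the sum was at most 0.103 FPKM. The part of these cells in the result was not tested.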

How the data were processed

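RNA of osteoclast precursor cells was sequenced as 8 libraries (2 for each of 4 groups) in paired 100-base reads. Per the file headers, the deposited FPKM values were made by the authors with HOMER over mm10 exons, on both strands, condensed to 1 transcript per gene. The submitters' processing notes also name HISAT2 and DESeq2, with versions not given in the sources used here. Groups and replicate numbers were taken from the labels. The 43 members and all gene lists were chosen with earlier results of these data known.

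FPKM values were analysed as log2(FPKM + 1) with limma 3.58.1 (R 4.3.3) in a single model of all groups, with trended variances, over genes with a mean of at least 0.5 FPKM. The comparisons were PRDX1 without and with RANKL, RANKL without and with PRDX1, and their interaction, and a gene was called at a Benjamini-Hochberg adjusted p under 0.05 over all genes tested and a change of at least 1.5-fold. With 2 libraries against 2, an exact permutation test cannot go under 0.05 and was not used. FPKM times length gave whole reads (tolerance 0.1 reads) for 100% of the low genes checked in each library, from which totals were recovered and used for depth and a read-based alternative. Read floors cover counting error only. Per role, the members named were those with the largest change by PRDX1 in each comparison, with those called for the interaction and those with the smallest change; other members were named to account for the whole set, with their values known. Motifs were searched in RefSeq promoters (GRCm38.p6), and transcript windows were compared in GENCODE M21. The scripts were tested on simulated data. Stray text in unnamed trailing columns of 44 lines was not used. Alternatives were limma without trend, other filters, a pseudocount of 0.1, other scalings, voom on recovered reads, a replicate block and leaving out each library. Same-numbered libraries did not deviate together (correlations 0.0085 to 0.0965). The numbers are those of the labels. The folder names in the file header carry other numbers for some libraries, so neither this check nor the block shows whether libraries share a culture or a day. One gene of the pathway list is not reported here.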

Additional observations from a re-analysis of the deposited data

Results flagged for a closer look

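The change by PRDX1 differed between libraries with and without RANKL for 2 members, Mx1 (by 1.19 on the log2 scale) and Trim21 (by 0.62), and for 4 other genes of the interferon pathway, Irf8 (by 1.28), Tlr7 (by 0.92), Stat2 (by 0.80) and Ikbke (by 0.68), each by the interaction term of limma after Benjamini-Hochberg adjustment. All 6 had a higher value, as had 4.50% of all genes tested, while 8.85% were called in either direction. The 2 of 43 members (4.65%) lay near that 4.50%. The 4 of 41 pathway genes tested (9.76%) lay above it and near the 8.85%, and whether they differ was not tested. The member count depended on which library was left out. In all 6 the change was more positive with RANKL. For Trim21 it went from -0.28 without RANKL to 0.34 with it, and for Tlr7 from -0.07 to 0.85. The value for Trim21 was 0.57 without replicate 2 of the controls and 0.56 without replicate 1 of PRDX1 + RANKL, and it was not called there. All 6 had lower levels with RANKL alone than in the controls, and the same libraries enter both differences.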

How the results depend on the processing

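None of the member counts and medians, and none of the single-gene log2 changes recomputed (those called and some others printed), changed direction under the alternatives run. Over all genes, the balance of RANKL calls did turn: without PRDX1 from 1383 higher and 1165 lower to 1088 and 1322 under quantile normalization and 1153 and 1302 under upper quartile scaling, and with PRDX1 from 529 and 466 to 457 and 563, and 466 and 542. The members called by PRDX1 numbered 20 to 26 without RANKL and 32 to 35 with it when each library was left out, with median log2 changes of 0.55 to 0.81 and 0.77 to 0.88, and 0 were called lower in each case. The calls by RANKL without PRDX1 were 0 to 3 higher and 4 to 10 lower (median -0.21 to -0.0633), those by RANKL with PRDX1 1 to 2 higher and 0 to 1 lower (median 0.10 to 0.13), and those of the interaction 1 to 9 higher and 0 to 1 lower (median 0.14 to 0.33). Of the interaction, 4 members were called with a pseudocount of 0.1 and 5 with voom on recovered reads, in place of 2. For RANKL with PRDX1, 1 member was called lower under quantile normalization (median 0.0278), upper quartile scaling and voom, and 3 were called higher with voom. The causes were not tested. The replicate block gave 24 members higher and 0 lower for PRDX1 without RANKL (median 0.69) and changed none of the calls printed for single genes. Isg20 was not called without RANKL when no filter was used (adjusted p = 0.0692, limma). Depth did not limit the members, all at 40 reads or more, but 18 interferon genes were at 0, which allows up to 3 reads in a library, and the other 3 had at most 2.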
